A study of Mus musculus with 14 samples.

Results

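Mediator-bound NANOG peaks without SIM2 are places in the genome of mouse embryonic stem (ES) cells where the pluripotency factor NANOG and a subunit of the Mediator complex were found together while overexpressed SIM2 was not. They were selected on the deposited peak lists themselves. A NANOG peak of clone A6 was a member if a MED1 or MED12 peak of the same clone lay within 100 bp and no FLAG-SIM2 peak of clones A6, B8 or C4 lay within 100 bp, measured from interval to interval. Chromosome 14 from 70 to 110 Mb was left out. Of the 14409 NANOG peaks outside that stretch, 386 were members. Another 621 had Mediator and a SIM2 peak and form the comparison group, and 11813 had neither. The presence of NANOG, the presence of Mediator and the absence of SIM2 are thus the selection and not results.

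The cells were EBRTcH3 (EB3) ES cells and 3 clones made from them, A6, B8 and C4. The clones carry Sim2 with a FLAG tag and a Venus reporter behind a promoter that is silent in tetracycline, placed at the ROSA-TET locus, and all lines had been kept without tetracycline for 26 h. FLAG ChIP-seq was done in the 3 clones, taken as replicates of each other, and in EB3, which has no FLAG-SIM2. NANOG, OCT4, MED1 and MED12 ChIP-seq came from clone A6 alone, with 1 library each, so every NANOG, OCT4 and Mediator value below is from cells that overexpressed SIM2 and has no replicate. The SIM2 lists hold 2387, 2137 and 631 peaks, and a peak absent from a list is a peak not called at that library's depth. The lists do not state how many tags were sequenced. No EB3 peak lay within 100 bp of a member or a comparison peak. The left-out stretch held 11 further peaks that met the other conditions and 15 with SIM2.

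NANOG is a homeodomain protein that, with OCT4 and SOX2, holds ES cells in the pluripotent state. Mediator is a large coactivator that links factors bound at enhancers to RNA polymerase II. MED1 is a subunit of its core and a frequent contact for activators, and MED12 belongs to its kinase module. SIM2 is a basic helix-loop-helix PAS protein that pairs with ARNT.

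The sequences below show what such peaks look like (mm9, plus strand, 5′ to 3′). The peak near Zmynd8, a reader of acetylated histones, is shown because it was the one among the members with the highest NANOG, MED12 or MED1 tag counts that held the octamer of OCT4, ATGCAAAT, in capitals from base 125. It lay at chr2:165768725-165768891, 44292 bp upstream of the transcription start site (TSS) and between genes, and had a NANOG tag count of 32.5, a MED12 tag count of 5.3 and an OCT4 tag count of 7.6. The Myst4 peak at chr14:22305492-22305658 is the comparison peak with the octamer and the highest NANOG tag count, 58.1, and had SIM2 peaks in 2 clones. Its octamer begins at base 81.

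Zmynd8 member: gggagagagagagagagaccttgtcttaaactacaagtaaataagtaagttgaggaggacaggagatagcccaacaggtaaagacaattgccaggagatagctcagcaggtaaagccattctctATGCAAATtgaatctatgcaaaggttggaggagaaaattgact

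Myst4 comparison peak: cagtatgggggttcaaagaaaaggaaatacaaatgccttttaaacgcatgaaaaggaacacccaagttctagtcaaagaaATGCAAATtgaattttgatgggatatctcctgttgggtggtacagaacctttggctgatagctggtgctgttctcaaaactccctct

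The next 3 show a sequence that recurred among the members. They were chosen after the sequences had been seen. Cenpo (chr12:4358777-4358943) and Gm9797 (chr10:11521540-11521706) are the nearest genes of 2 members, with NANOG tag counts of 24.0 and 21.7 and OCT4 tag counts of 7.9 and 7.0. Gm8991 (chr5:16474814-16474980) names a comparison peak with a NANOG tag count of 27.1, an OCT4 tag count of 12.7 and SIM2 peaks in 2 clones. The capitals mark GCATNACAA, the joint of an OCT and a SOX site as it is found in composite elements, where N is any base. It lies on the plus strand in both members and on the minus strand in the comparison peak.

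Cenpo member: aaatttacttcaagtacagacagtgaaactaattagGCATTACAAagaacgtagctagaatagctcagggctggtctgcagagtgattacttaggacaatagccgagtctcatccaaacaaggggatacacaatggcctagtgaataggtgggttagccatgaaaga

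Gm9797 member: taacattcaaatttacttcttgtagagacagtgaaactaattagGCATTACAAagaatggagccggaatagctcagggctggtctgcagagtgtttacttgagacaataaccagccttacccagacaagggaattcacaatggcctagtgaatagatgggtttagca

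Gm8991 comparison peak: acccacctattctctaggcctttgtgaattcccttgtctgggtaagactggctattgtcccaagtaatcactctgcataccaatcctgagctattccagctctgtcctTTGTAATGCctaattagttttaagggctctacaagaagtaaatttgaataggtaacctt

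Another 3 members, also chosen after the sequences had been seen, had no OCT4 peak and held AAGGTCA, the site of the orphan nuclear receptor ESRRB, in capitals on either strand. The Zfp706 peak (chr15:37011776-37011942) and the Nmnat2 peak (chr1:154856518-154856684) share a second recurring sequence and hold the motif at 2 places each. The N4bp1 peak (chr8:89412063-89412229) shared its sequence with no other Mediator-bound NANOG peak and had the highest NANOG tag count, 21.7, among members of this kind.

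Zfp706 member: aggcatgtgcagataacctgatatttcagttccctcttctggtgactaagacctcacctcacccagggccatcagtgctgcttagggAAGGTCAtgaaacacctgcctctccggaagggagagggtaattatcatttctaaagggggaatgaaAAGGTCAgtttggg

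Nmnat2 member: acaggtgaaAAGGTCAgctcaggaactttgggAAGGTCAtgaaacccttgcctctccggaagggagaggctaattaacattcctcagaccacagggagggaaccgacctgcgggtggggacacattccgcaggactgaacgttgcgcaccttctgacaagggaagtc

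N4bp1 member: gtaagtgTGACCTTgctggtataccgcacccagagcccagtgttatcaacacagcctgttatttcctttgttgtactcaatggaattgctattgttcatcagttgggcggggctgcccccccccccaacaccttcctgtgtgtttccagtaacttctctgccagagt

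NANOG itself was weaker at the members than at the comparison peaks. The measure is the column that the authors' peak caller names normalized tag count, and it is compared here only within the NANOG library. The lists do not state its scale, and it is not a fixed multiple of the total tags given for the same peak, since the peaks of D1Bwg0212e and Rbbp5 have 97 and 98 total tags but normalized tag counts of 41.8 and 34.1. Members had a median of 10.8, with quartiles of 7.0 and 17.0 and a range from 2.3 to 42.6. Comparison peaks had a median of 17.0, with quartiles of 11.6 and 23.2 and a highest value of 64.3. NANOG peaks with neither Mediator nor SIM2 had a median of 5.4, so the members lay between the other groups, and the ranges of the 3 groups overlapped widely. The total tags, a separate column of whole counts, had the same order, with medians of 28 in members, 42 in comparison peaks and 14 in peaks with neither.

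**Figure D1:**
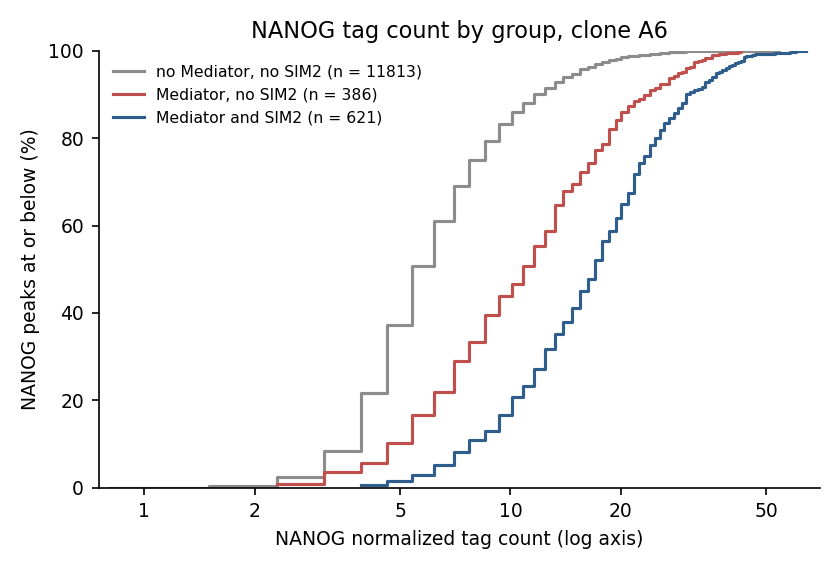
Share of NANOG peaks (%) at or below each NANOG normalized tag count (log axis) in clone A6, as 1 line for each of the 3 groups. The line of the 386 members lies between that of the 11813 peaks with neither Mediator nor SIM2 and that of the 621 peaks with both.

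Of the members, 30.6% (118; 95% Wilson interval 26.2 to 35.3%) exceeded 14.7, the median tag count of all 1007 Mediator-bound NANOG peaks, against 58.9% (366; 55.0 to 62.7%) of the comparison peaks and 9.98% of all 14409 NANOG peaks. The odds ratio was 0.307 (95% interval 0.232 to 0.405, adjusted p = 1.2e-17, Fisher's exact test, two-sided, Benjamini-Hochberg over 10 tests). Odds ratios below 1 mean that a feature was rarer among the members. Peaks of a library are not replicates of a condition, so this and the other tests describe these libraries, and the intervals cover counting error only. With total tags in place of the normalized tag count, an alternative added after seeing the data, the odds ratio was 0.319. With all lists limited to peaks of at least 6 times the input, the odds ratio for NANOG was 0.607 and did not pass the threshold (adjusted p = 0.192, Fisher's exact test), with 118 members and 211 comparison peaks. The SIM2 lists were limited too, so a member of this alternative could have a SIM2 peak of lower fold.

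An OCT4 peak lay at 85.5% of the 69 members and 91.0% of the 256 comparison peaks with NANOG tag counts of at least 19.4. The 10 members with the highest NANOG tag counts, 32.5 to 42.6, had one in every case. First was an intronic peak 8518 bp downstream of the TSS of Larp7, which encodes a protein of the 7SK ribonucleoprotein, at chr3:127247665-127247831, with 110 NANOG tags, 50.7 times the input, an OCT4 tag count of 7.9 and MED1 but not MED12. Its nearest SIM2 peak lay 80743 bp away. The peak upstream of D1Bwg0212e followed with a NANOG tag count of 41.8 and an OCT4 tag count of 12.7, and then intronic peaks nearest to Adk, the adenosine kinase gene, with 38.7, and Hnrnpr, a heterogeneous nuclear ribonucleoprotein gene, with 37.2. Hnrnpr had both Mediator subunits, with tag counts of 4.4 for MED1 and 4.7 for MED12. Rbms3 and Sfmbt2, a Polycomb group gene, had 35.6 each, Rbbp5, a subunit of MLL histone methyltransferase complexes, and Vwc2 34.1 each, and Egfl6 33.3. In all 10 the nearest SIM2 peak lay at least 25567 bp away.

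OCT4 was found at fewer members than comparison peaks. An OCT4 peak lay within 100 bp of 187 of the 386 members (48.4%, 43.5 to 53.4%) and of 443 of the 621 comparison peaks (71.3%, 67.7 to 74.8%), against 16.2% of all NANOG peaks. The difference was -22.9 percentage points (95% interval -28.9 to -16.7), with an odds ratio of 0.378 (0.287 to 0.496, adjusted p = 2.8e-12, Fisher's exact test). OCT4 is the POU-domain partner of SOX2 at many NANOG sites. Where an OCT4 peak was present, its tag count had a median of 5.7 at members and 6.7 at comparison peaks. The distance between the OCT4 and NANOG centres had medians of 24 and 25 bp, against 26 bp over all NANOG peaks with OCT4. The limit of 100 bp for presence keeps these distances short.

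The share with OCT4 was higher the more clones had a SIM2 peak. It was 48.4% with none, 65.3% with 1 clone (59.0 to 71.0%, n = 236), 71.4% with 2 (65.5 to 76.6%, n = 255) and 82.3% with 3 (74.8 to 87.9%, n = 130). The median NANOG tag count was 10.8, 15.9, 17.0 and 19.0 in the same order. These are descriptions of peaks from the same libraries, and no trend was tested. The interval of the members did not reach that of the peaks with SIM2 in a single clone.

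**Figure D2:**
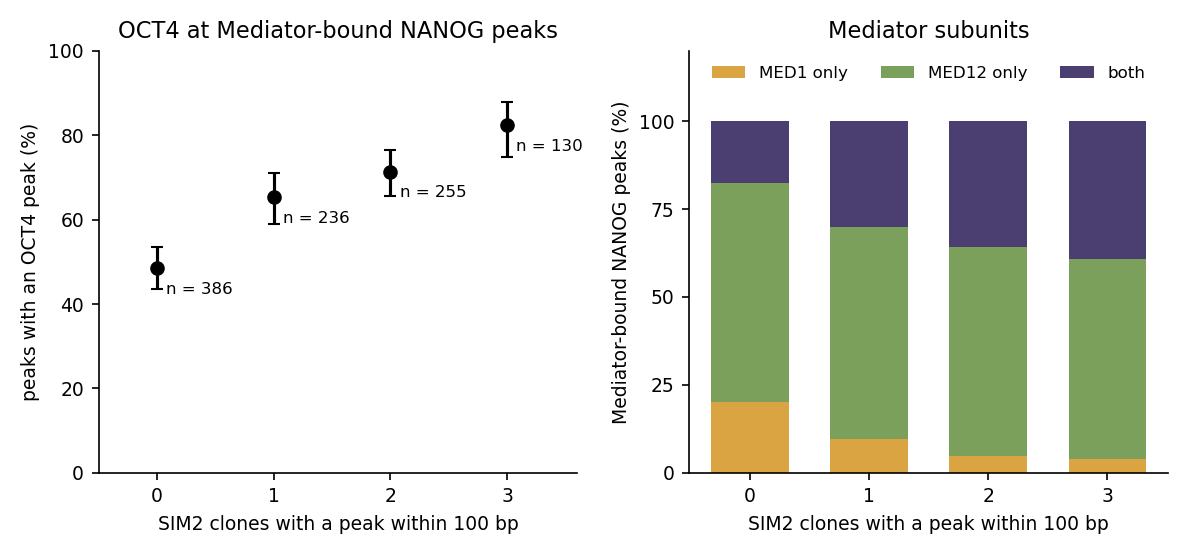
Left, share of Mediator-bound NANOG peaks with an OCT4 peak within 100 bp (%), by the number of SIM2 clones with a peak, with points for the shares and bars for 95% Wilson intervals. Right, share of the same peaks with MED1 only, MED12 only or both (%); the members are the peaks with 0 clones, with the lowest OCT4 share, 48.4%, and the largest MED1-only share, 20.2%.

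The share with OCT4 also differed by NANOG tag count. When the 1007 peaks were divided into tertiles by NANOG tag count, members made up 57.5% of the lowest tertile (tag counts of 2.3 to 10.8), 35.5% of the middle (11.6 to 18.6) and 21.2% of the highest (19.4 to 64.3). In the lowest tertile 21.9% of 196 members and 37.9% of 145 comparison peaks had OCT4. In the middle tertile the shares were 70.2% of 121 and 70.5% of 220. In the highest tertile they were 85.5% of 69 and 91.0% of 256. The intervals of members and comparison peaks overlapped in the middle and highest tertiles and not in the lowest, as the plot by tertile shows. With the tertiles held apart, the odds ratio for OCT4 was 0.658 (0.483 to 0.897, adjusted p = 0.0446, Mantel-Haenszel chi-square test). This was narrowly past the threshold and nearer to 1 than the 0.378 over all peaks.

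**Figure D3:**
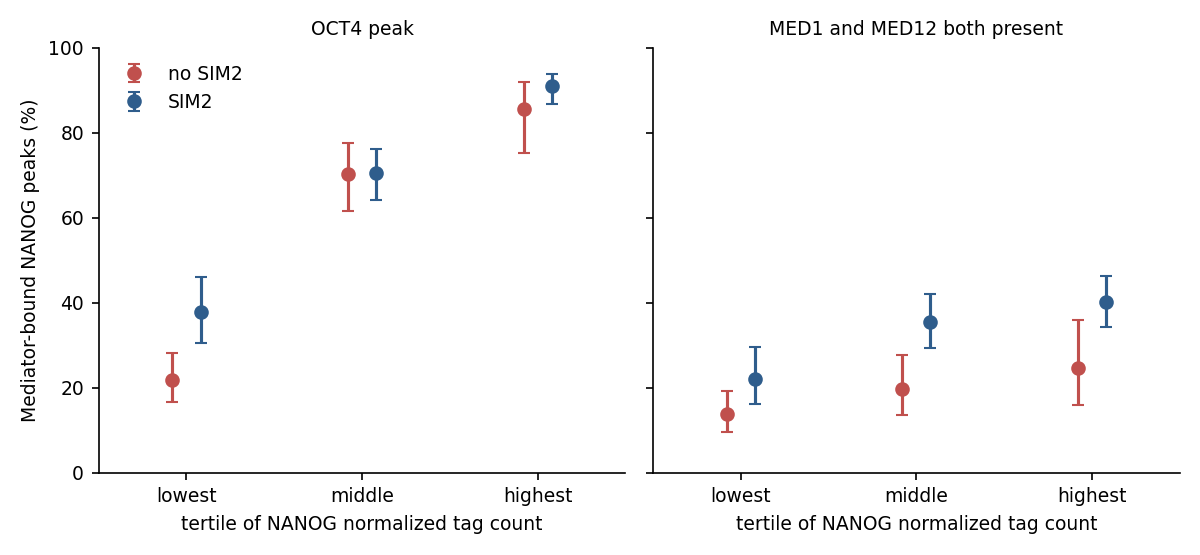
Share of Mediator-bound NANOG peaks (%) with an OCT4 peak (left) and with both Mediator subunits (right), by tertile of NANOG normalized tag count, for members (no SIM2) and comparison peaks (SIM2), with 95% Wilson intervals. OCT4 shares were 70.2 and 70.5% in the middle tertile, while the share with both subunits was lower in members in each tertile.

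Fewer members had both Mediator subunits. Both MED1 and MED12 were found at 68 members (17.6%, 14.1 to 21.7%) and 213 comparison peaks (34.3%, 30.7 to 38.1%), against 1.95% of all NANOG peaks. The odds ratio was 0.410 (0.296 to 0.563, adjusted p = 2.1e-08, Fisher's exact test). Within tertiles of NANOG tag count it was 0.494, with 13.8 and 22.1% in the lowest tertile, 19.8 and 35.5% in the middle and 24.6 and 40.2% in the highest. With peaks of at least 6 times the input it was 0.635 and did not pass the threshold (adjusted p = 0.362, exact test), and without clone A6 it was 0.560, which passed. The rule required a subunit at each peak of both groups but did not set which or how many. The share over all NANOG peaks, most of which had no Mediator, is therefore lower by selection.

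The members differed among themselves by the subunit present. MED12 alone marked 240 (62.2%), MED1 alone 78 (20.2%, 16.5 to 24.5%) and both the remaining 68. Among comparison peaks MED1 alone was found at 40 (6.44%, 4.77 to 8.65%). Members with MED1 alone had the lowest NANOG tag count, with a median of 7.7, against 11.6 with MED12 alone and 12.8 with both. An OCT4 peak lay at 39.7%, 47.1% and 63.2% of these in turn. Comparison peaks had the same order, with NANOG medians of 11.6, 16.65 and 18.6 and OCT4 at 52.5%, 69.3% and 78.4%. Of the 20 members in a promoter window, 8 had MED1 alone, 8 MED12 alone and 4 both. When peaks with MED1 alone were left out of both groups, the odds ratio for OCT4 was 0.387.

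Mediator tag counts, each compared within its own library and with no test, had medians of 6.0 at members and 7.3 at comparison peaks for MED12, and of 5.7 and 6.4 for MED1. The median fold over input was 4.88 for MED12 and 4.71 for MED1 at members, where the lowest values were 4.01 and 4.04. At comparison peaks the medians were 5.49 and 5.18, with the same lowest values, so the members lay nearer to the lowest fold.

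The 5 members with the highest MED12 tag counts included peaks of Sox2, Lefty1 and Tet1. The highest, 18.6, lay 8093 bp upstream of BC096441 at chr11:69517610-69517776, with a NANOG tag count of 27.1, MED1 at 8.3 and OCT4 at 7.3. The next, 17.3 and 12.8 times the input, lay 106803 bp downstream of the TSS of Sox2 at chr3:34655778-34655944, in the region of a distal enhancer of that gene. Its NANOG tag count was 17.0, it had neither MED1 nor OCT4, and SIM2 of clone A6 lay 912 bp away. Lefty1, which encodes an inhibitor of Nodal signalling, had a member 10161 bp upstream at chr1:182854909-182855075 with MED12 at 13.3, MED1 at 6.4, OCT4 at 10.8 and NANOG at 27.9. The intronic member 3433 bp downstream of the TSS of Tet1, a 5-methylcytosine dioxygenase gene, at chr10:62358350-62358516 had MED12 at 13.3 and MED1 at 11.4 but a NANOG tag count of 8.5 and no OCT4. The Gm3625 peak followed with MED12 at 12.6.

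For MED1 the 3 highest members lay together upstream of Kif2c on chromosome 4, between 7198 and 28086 bp from its TSS. Their MED1 tag counts were 22.2, 19.7 and 19.1, while their NANOG tag counts were 6.2, 6.2 and 4.6, below the lower quartile of the members. The fourth, with MED1 at 17.2 and NANOG at 25.6, lay 7426 bp upstream of Jarid2, a subunit of Polycomb repressive complex 2, at chr13:44817395-44817561. SIM2 peaks of the 3 clones lay 149, 109 and 166 bp from it, so it was a member by the distance limit alone.

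Few members were in such a position. Only 8 had a SIM2 peak at 101 to 200 bp, and 28 of the comparison peaks were joined to SIM2 by a gap of 1 to 96 bp while 593 overlapped it. Just outside the limit were Upp1 and Foxd3, both at 101 bp, and Zswim6 at 104 bp, with NANOG tag counts of 3.1, 23.2 and 24.0. Just inside were the comparison peaks of Rbpms2 at 96 bp, Six4 at 93 bp and Msi2 at 91 bp, with 16.3, 16.3 and 15.5. For Mediator, 365 members overlapped a peak and 21 lay at 1 to 100 bp, the farthest being Arhgef3 at 88 bp, Runx1t1 at 85 bp and Rnf7 at 83 bp. NANOG peaks that missed the Mediator limit most narrowly were those of Fam169a at 103 bp, Dab2 at 110 bp and Zbtb20 at 125 bp.

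Many members nevertheless lay in the neighbourhood of SIM2. The median distance to a SIM2 peak of any clone was 66515 bp. A SIM2 peak lay within 1 kb of 42 members (10.9%), within 10 kb of 104 (26.9%, 22.8 to 31.6%) and within 100 kb of 217 (56.2%). For NANOG peaks with neither Mediator nor SIM2 the shares were 2.15%, 8.48% and 33.5%, lower at each distance. Both groups lack SIM2 within 100 bp by selection, which set aside 621 of the 1007 Mediator-bound NANOG peaks and a smaller share of the peaks without Mediator, so the distances are a description and no test was made.

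**Figure D4:**
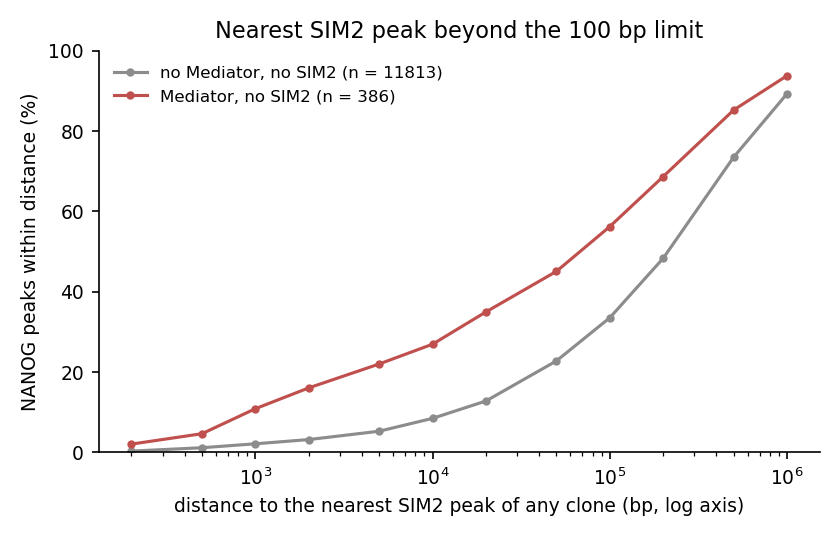
Share of NANOG peaks (%) with a SIM2 peak of any clone within the distance on the log axis (bp), for the 386 members and the 11813 NANOG peaks with neither Mediator nor SIM2. Both lines start beyond the 100 bp limit, and that of the members is higher throughout, with 26.9 against 8.48% at 10 kb.

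A difference in clustering was not detected. Another Mediator-bound NANOG peak lay within 10 kb of 74 members (19.2%) and 137 comparison peaks (22.1%), against 5.04% of all NANOG peaks, with an odds ratio of 0.838 (0.601 to 1.16, adjusted p = 0.400, Fisher's exact test). The direction turned in 2 of the alternatives, to 1.05 without clone A6 and to 1.21 with peaks of at least 6 times the input. Peaks chained at 10 kb gave 373 loci with a member, and 50 of these also held a comparison peak. The members lay on 20 chromosomes, with 9 to 32 on each. Med13l, a paralogue of the Mediator subunit MED13, was the nearest gene of 4 members, the most of any gene, all upstream of its TSS and none with OCT4, with NANOG tag counts of 4.6 to 9.3.

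Most members were distal, as were most comparison peaks and most NANOG peaks. By GENCODE vM1, 258 (66.8%) lay between genes, 101 (26.2%) in introns, 7 in exons and 20 (5.18%, 3.38 to 7.87%) in a promoter window, 1 kb upstream to 300 bp downstream of a TSS. Among comparison peaks 65.9% lay between genes and 29.0% in introns, and among all NANOG peaks 58.1% and 37.5%. The promoter share was 3.86% (24) among comparison peaks and 2.95% among all NANOG peaks, and the odds ratio of 1.36 (0.701 to 2.61) did not pass the threshold (adjusted p = 0.400, Fisher's exact test). With SIM2 required in at least 2 clones it was 2.28 (0.977 to 5.77, adjusted p = 0.0944, exact test), also not past it. Distances to the nearest TSS had medians of 20093 bp in members and 20027 bp in comparison peaks, but 34156 bp in NANOG peaks with neither. GC content had medians of 43.1%, 44.9% and 42.5%.

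The promoter members with the highest NANOG tag counts were those of Ntn1, which encodes the guidance cue netrin-1, at 31.8, Jarid2 at 30.2 and Dido1 at 24.8. The Dido1 peak lay 794 bp downstream of the TSS that names it. The promoter window it met was that of another TSS. Dido1 had both MED1 (6.4) and MED12 (11.3), OCT4 at 11.4 and the octamer, and its nearest SIM2 peak was 482850 bp away. Rbpj, the DNA-binding effector of Notch signalling, had NANOG at 19.4 and MED12 at 6.0 without OCT4. The 20 promoter members ranged down to a NANOG tag count of 2.3, at Tuba1b and Sulf2, and included the promoter of Med16, itself a Mediator subunit gene, at 5.4.

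None of the 5 motifs fixed for the 167-base peaks differed between the groups past the threshold. Each was searched as exact letters on both strands. The octamer ATGCAAAT was in 7.51% of members (29) and 5.96% of comparison peaks (37), against 6.23% of all NANOG peaks (odds ratio 1.28, 0.746 to 2.18, adjusted p = 0.400, Fisher's exact test). The SOX motif ACAAAG was in 27.2% (105) and 33.0% (205), against 29.8% (odds ratio 0.758, 0.567 to 1.01, adjusted p = 0.145, same exact test). This one passed the threshold under 4 alternatives, among them the 300 bp window around the peak centre, with an odds ratio of 0.700 and an adjusted p of 0.0182. AAGGTCA, for ESRRB, was in 14.2% (55) and 11.8% (73), against 9.73% (odds ratio 1.25, 0.839 to 1.85, adjusted p = 0.400, exact test).

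The KLF motif GGGTGTG, for KLF4 and its relatives, was in 8.03% (31) of members and 7.73% (48) of comparison peaks, against 7.03% of all NANOG peaks (odds ratio 1.04, 0.629 to 1.71, adjusted p = 0.904, Fisher's exact test). Its direction turned under 7 alternatives. ACGTG, the core bound by SIM2 with ARNT, was in 3.89% (15) and 6.12% (38), against 4.50% (odds ratio 0.621, 0.313 to 1.17, adjusted p = 0.293, exact test). The intervals leave room for differences of several percentage points, for the core motif from -4.88 to 0.689.

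**Figure D5:**
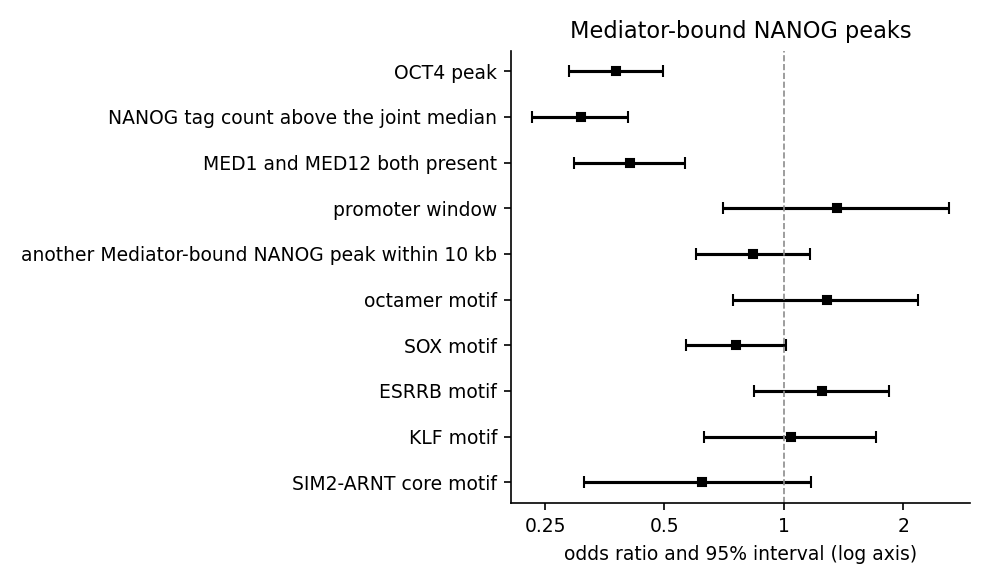
Odds ratios (log axis) of 10 features in the 386 members against the 621 comparison peaks, with 95% intervals as bars and a dashed line at 1. The intervals of OCT4, NANOG tag count and both Mediator subunits lie below 1, and those of the other 7 features include 1.

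Within the members, the composite joint GCATNACAA was in 21 of the 187 members with an OCT4 peak (11.2%, 7.46 to 16.6%) and in 5 of the 199 without (2.51%, 1.08 to 5.75%). In comparison peaks it was in 32 of 443 and 1 of 178. Over all NANOG peaks the composite was in 11.2% of those with an OCT4 peak and 3.89% of those without, so the shares in members were near these. AAGGTCA had the opposite order, in 12.3% of members with OCT4 and 16.1% of those without, with overlapping intervals. Over all NANOG peaks AAGGTCA had the same order as in members, with 7.62 and 10.1%. The composite was added after the data had been seen and was not tested.

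Some of the peaks held sequences that occurred in several copies. A run of 20 identical bases on either strand was shared with another Mediator-bound NANOG peak by 92 members (23.8%, 19.9 to 28.3%) and 110 comparison peaks (17.7%, 14.9 to 20.9%), in 28 groups of up to 36 peaks. The share over all NANOG peaks was not counted, so whether such runs are usual for NANOG peaks cannot be told. The largest group, to which Cenpo, Gm9797 and Gm8991 belong, had 23 members on 11 chromosomes and 13 comparison peaks. In it, 17 of the 23 members held the composite joint, 18 had OCT4 and the median NANOG tag count was 14.7. Of its 13 comparison peaks, 8 held the joint, 12 had OCT4 and the median NANOG tag count was 18.6. Of all 26 members with the joint, 20 were in a shared-sequence group, and of the 33 comparison peaks with it, 13. Without the shared-sequence peaks the joint was in 2.04% of members and 3.91% of comparison peaks, against 6.74% and 5.31% over all of them, so its order between the groups turned.

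Another group, that of Zfp706 and Nmnat2, had 12 members and 6 comparison peaks. AAGGTCA was in 11 of the 12 members, OCT4 at 3 of them, and their median NANOG tag count was 8.9. Of the 6 comparison peaks, 4 held AAGGTCA and 2 had OCT4. A group of 25 peaks had the other composition, with 6 members and 19 comparison peaks, and OCT4 at 5 and 18 of these, and it includes the Egfl6 and Gm3625 members named above. Copies of a recurring sequence were thus found in both groups of peaks, and how uniquely reads could be placed in them was not tested. Without any peak of shared sequence, OCT4 lay at 46.6% of 294 members and 70.3% of 511 comparison peaks, and both subunits at 17.0% and 35.0%.

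The genes near the peaks were counted over lists of genes. Of 22232 protein-coding genes, 1070 (4.81%) had a member within 100 kb of the TSS and 1379 (6.20%) a comparison peak. Of the 1070 genes with a member, 291 had both. None of 4 core pluripotency genes had a member and 3 had a comparison peak, Nanog, Pou5f1 and Sox2, the Sox2 member named above lying beyond the limit. Of 11 naive pluripotency genes 4 had a member and 9 a comparison peak, and each of the 4 had both. These lists are short and were chosen with results of these data known, so the counts are descriptions.

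Among the naive genes with both were Klf2, Esrrb and Prdm14, all of which encode DNA-binding factors. At Klf2 the nearest member, 15418 bp downstream, had NANOG at 17.8 and the nearest comparison peak, 2807 bp upstream, 11.6. At Esrrb the order was the other way, 5.4 for the member and 25.6 for the comparison peak, and so it was at Prdm14 with 18.6 and 39.5.

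Of 9 genes of LIF and STAT3 signalling, which sustains ES cells in culture, 4 had a member and 5 a comparison peak. The Lifr member, at the gene of the LIF receptor, had NANOG at 15.5, MED12 at 9.3 and OCT4 at 8.6, and lay 835 bp from SIM2, beside a comparison peak with NANOG at 35.6. Socs3, a feedback inhibitor of the pathway, had a member with 8.5 and a comparison peak with 11.6, and the kinase genes Pim1 and Pim3 had members with 5.4 and 3.1.

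The TGF-beta family list had members at 4 of 13 genes and comparison peaks at 6. The same peak, that of Lefty1 described above, was also nearest to Lefty2. Bmp4, a ligand, had a member 1008 bp upstream with MED1 at 9.5 and NANOG at 8.5, 113 bp from SIM2, and Id1, a target of BMP signalling, had one with NANOG at 4.6 and SIM2 282778 bp away. Members near FGF and ERK genes were found at 3 of 10 genes, the feedback inhibitors Spry4 (17.8) and Spred1 (3.1) and the ERK target Etv5 (27.1), and comparison peaks at 6. WNT genes had a member at 0 of 9 and a comparison peak at 1.

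Among 14 chromatin regulators 4 had a member, Jarid2, Eed, Mtf2 and Tet1, and 8 a comparison peak, and each of the 4 had both. Jarid2, Eed and Mtf2 encode subunits of Polycomb repressive complex 2, with nearest members at NANOG tag counts of 30.2, 13.9 and 20.9. Of 14 formative and lineage genes only Otx2, a homeobox gene, had a member (7.7, with SIM2 1189 bp away), and of 12 housekeeping genes only Rplp0 had one (5.4).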

How the data were processed

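Reads were aligned by the authors to mm9 using BWA, duplicate reads were discarded, and HOMER at its default settings compared every ChIP library, unpooled, with the input of the same cells. Versions of both are not given in the sources used here. By the sample titles, NANOG and OCT4 shared an input, and so did MED1 and MED12. Peak calls within each of these pairs are therefore not independent. The deposited normalized tag count is a signal for each peak, written by HOMER for the authors; by its name it is scaled to library size, but the lists state no scale, and it is not proportional to the total tags. The deposited fold over input is a ratio, and the deposited total tags are whole counts in the NANOG, MED1 and MED12 lists. SOX2 peaks and NANOG and OCT4 peaks of EB3 were not used here. The members, tests and gene lists were chosen with earlier results of these data known.

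Gaps were measured between intervals, and a gap of up to 100 bp counted as presence. Reference sequence and genes came from NCBIM37 (mm9) and GENCODE vM1, with the nearest protein-coding TSS naming each peak. The chromosome 14 stretch that was left out held 13.0% of the MED1 peaks. Each of 10 features was compared by Fisher's exact test, two-sided, with Benjamini-Hochberg adjustment and a threshold of 0.05, and shares carry Wilson intervals. The peaks named were the 10 members with the highest NANOG, 5 with the highest MED12 and 5 with the highest MED1 tag counts, those nearest the distance limits, and the nearest to each listed gene, of which 1 is not reported here; other promoter members and the Med13l peaks were named after their values were seen. Alternatives covered the window, the peak threshold, the SIM2 clones, 1 peak per locus, the left-out stretch, tertiles of NANOG tag count and the motif window. Leaving out MED1-only peaks, NANOG total tags, the composite motif and the shared 20-base runs, which ignored runs of only 1 or 2 different letters, were added after seeing the data. Python 3.11.15, scipy 1.17.1, pandas 2.3.3, statsmodels 0.14.6, numpy 2.4.6, bedtools 2.31.1 and matplotlib 3.10.9 were used. The measuring of gaps and Fisher's exact test were tested on simulated data, and the other steps were not.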

Additional observations from a re-analysis of the deposited data

How the results depend on the processing

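The OCT4 difference kept its direction and passed the threshold under all 11 alternatives, with odds ratios of 0.313 to 0.658. It passed only narrowly within tertiles of NANOG tag count, at 0.658 (adjusted p = 0.0446, Mantel-Haenszel chi-square test). With peaks of at least 6 times the input in every list, the number of members fell to 118 and the odds ratios for NANOG tag count and both subunits were 0.607 and 0.635, no longer past the threshold, with fewer peaks in both groups. SIM2 peaks of lower fold were not counted in this alternative. The SOX motif passed the threshold with interval overlap in place of 100 bp (0.662), with SIM2 in at least 2 clones (0.662) and in the 300 bp window (0.700), and the cause was not tested. The KLF motif turned direction with interval overlap (0.895), 500 bp (0.847), SIM2 in at least 2 clones (0.873), 1 peak per locus (0.891), the chromosome 14 stretch kept (0.993) and tertiles of NANOG tag count (0.919), and the neighbour within 10 kb with peaks of at least 6 times the input (1.21); none of these passed the threshold. The core of SIM2 and ARNT was at 0.939 in the 300 bp window, and the promoter window at 2.28 with SIM2 in at least 2 clones.

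Leaving out each SIM2 clone in turn gave 389 to 549 members, the most without clone A6, and odds ratios of 0.380 to 0.435 for OCT4, 0.300 to 0.460 for NANOG tag count, 0.397 to 0.560 for both subunits, 1.47 to 1.83 for the promoter window, 0.825 to 1.05 for the neighbour within 10 kb, 1.07 to 1.31 for the octamer, 0.675 to 0.776 for SOX, 1.16 to 1.51 for ESRRB, 0.757 to 1.07 for KLF and 0.505 to 0.674 for the core of SIM2 and ARNT. Without clone A6 the SOX motif passed the threshold and the KLF motif and the neighbour within 10 kb turned direction.

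No paired analysis was possible because NANOG, OCT4, MED1 and MED12 have a single library each and the features come from no test across samples. The NANOG, OCT4 and Mediator libraries have no replicates.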
